A study of Homo sapiens with 6 samples.

Results

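The genes described here encode the subunits of the nuclear RNA polymerases I, II and III (Pol I, II and III). They are all genes whose symbol in the array annotation begins with POLR1, POLR2 or POLR3 and a further letter, each read from a probe set paired with exactly 1 symbol. This gave 31 of the 18417 named genes on the array, by a rule that uses no measured difference. Of the 31, 6 encode subunits of Pol I alone, 7 of Pol II alone and 9 of Pol III alone, 2 are shared by Pol I and III, and 5 are shared by all 3 enzymes. The other 2, POLR2M and POLR1HASP, encode a Pol II-binding protein and an antisense RNA, so 29 subunits remain. POLR2J2 and POLR2J3 had no probe set of their own and were not analysed here.

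The cells were HCT116, a human colorectal carcinoma line, harvested 48 h after transient transfection of double-stranded siRNA. In the 3 arrays labelled siChe-1 the siRNA was directed at Che-1, the protein made from AATF, and in the 3 labelled control it was directed at GFP, a jellyfish protein absent from human cells. All 6 were Affymetrix whole-transcript arrays, each prepared from 6 micrograms of total RNA. The design addresses the transcripts that change upon loss of Che-1.

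Each nuclear polymerase is built around a pair of large catalytic chains, with smaller subunits that start, stabilise, cleave or end the transcript. Pol I makes the large ribosomal RNA precursor in the nucleolus, Pol II makes messenger RNA, and Pol III makes transfer RNA and 5S ribosomal RNA. A proliferating cell line such as HCT116 uses all of them heavily to supply ribosomes. Che-1 was first described as a protein that binds the Pol II subunit encoded by POLR2J, and it is also found in the nucleolus.

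The siRNA target itself ran opposite to its label. AATF read 8.53, 8.81 and 8.87 in the arrays labelled siChe-1, against 7.55, 7.75 and 7.55 in those labelled control (log2 RMA intensity, a background-corrected and between-array normalised signal). AATF was thus higher in the group whose siRNA targets it (log2 difference 1.12 ± 0.13, SE, limma adjusted p = 0.00122). In all that follows "higher", "rose", "lower" and "fell" describe the arrays labelled siChe-1 relative to the arrays labelled control, and every direction would turn if the labels were exchanged.

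The array labelled siChe-1 replicate 1 stood apart from the other 2 of its group. Over the 18417 genes, which are not independent replicates, its deviations from the group mean correlated at -0.81 and -0.73 with those of replicates 2 and 3, whose deviations correlated at 0.20 with each other. Deviations from a mean of 3 arrays sum to 0, which pulls every pair below 0, and the control pairs lay at -0.47, -0.48 and -0.55. Among the 29 subunits it was the lowest of the 6 arrays for 16 and the highest for 5. Where leaving it out changed a subunit's call or moved a named subunit by over 1.5 times, the value without it is given as well. For factors that work with the polymerases, only a changed call is given. The epithelial markers KRT8, KRT18 and EPCAM were bright on all arrays. The colon markers VIL1 (3.64 to 3.76 in arrays labelled siChe-1 and 3.57 to 3.71 in those labelled control) and LGALS4 (4.46 to 4.72 and 4.52 to 4.68) read low. CDX2, also a colon marker, did not: it averaged 7.07 in arrays labelled siChe-1 and 7.07 in those labelled control. The medians over all genes were 5.79 and 5.74. None of 5 leukocyte markers and 8 fibroblast and endothelial markers was called by limma, and 1 of each list, CD14 and COL1A1 (log2 difference 0.38 each), was higher at an unadjusted p under 0.05. The fibroblast and endothelial markers spanned 2.82 to 7.48 in arrays labelled siChe-1 and 2.78 to 7.06 in those labelled control. The leukocyte markers spanned 2.28 to 6.20 in arrays labelled siChe-1 and 2.32 to 5.85 in those labelled control. Of these, CD14 and TYROBP (log2 difference 0.23) were higher without overlap and LYZ (-0.13) was lower without overlap. TYROBP averaged 6.07 and 5.84. Of the 8 epithelial markers only KRT19 passed, and it fell (log2 difference -0.59, limma adjusted p = 0.0171). That call was lost without any single array other than siChe-1 replicate 1 (adjusted p between 0.0568 and 0.0905). At an unadjusted p under 0.05, KRT8 (-0.39) and KRT18 (-0.44) were lower too and CDH1 (0.33) was higher, each without overlap. The part of these markers in the results below was not tested. The arrays hold RNA of whole cultures, so fewer cells of a kind and less RNA per cell cannot be told apart.

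Most subunits of Pol I and Pol III read lower in the arrays labelled siChe-1, and no measured subunit of Pol II passed the test in either direction. Of the 29 subunits, 3 fell by limma with Benjamini-Hochberg adjustment over all genes (adjusted p under 0.05), none rose, and 26 did not pass. The 3 were POLR1E and POLR1H of Pol I and POLR3G of Pol III. Over all 18417 genes 3.72% passed, 2.52% as lower and 1.19% as higher. At an unadjusted p under 0.05, 10 subunits were lower and 0 were higher, against 9.77% of all genes lower and 7.88% higher, and 14.1% lower among the 11050 genes left when the dimmest 40% are set aside. The groups did not overlap, with the arrays labelled siChe-1 lower, for 12 subunits, against 13.3% of all genes and 18.0% of the brighter 11050. They did not overlap in the other direction for 3 subunits, against 10.6% of all genes.

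The subunits used by 1 polymerase only had median log2 differences of -0.52 for Pol I (6 genes), 0.073 for Pol II (7 genes) and -0.30 for Pol III (9 genes). The median over all genes was 0.0051. All 6 Pol I subunits had a difference below 0, as did 3 of 7 Pol II subunits and 7 of 9 Pol III subunits, against 49.1% of all genes and 53.0% of the brighter ones. These counts describe the genes measured, and no test was made of the difference between polymerases. Without siChe-1 replicate 1 the medians were -0.44 for Pol I, -0.016 for Pol II and -0.18 for Pol III.

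**Figure D1:**
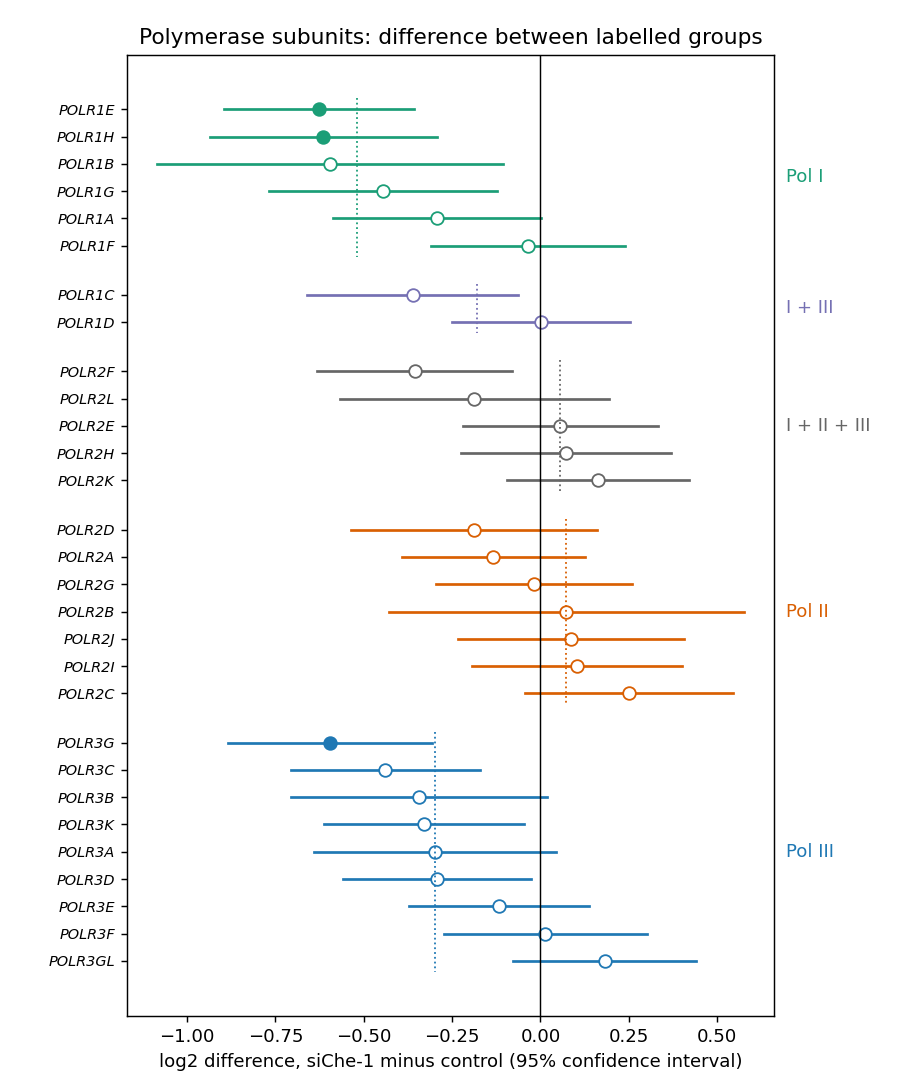
Log2 difference, siChe-1 minus control by label (x axis), of the 29 polymerase subunits, with 95% confidence intervals from limma as bars, grouped by polymerase. Filled points are the 3 subunits with adjusted p under 0.05 and dotted lines are the group medians, which lie at -0.52 for Pol I, 0.073 for Pol II and -0.30 for Pol III.

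The polymerases were also followed array by array, by the median over a polymerase's own subunits of the log2 difference from the mean of the 3 arrays labelled control. For Pol I the median was -0.50, -0.33 and -0.54 in the 3 arrays labelled siChe-1, against -0.029, 0.025 and 0.065 in those labelled control. The 2 groups of arrays did not overlap. For Pol II it was 0.15, -0.015 and 0.033 in the arrays labelled siChe-1, against 0.0087, 0.028 and -0.070 in those labelled control, and the groups overlapped. For Pol III it was -0.46, -0.16 and -0.15 in the arrays labelled siChe-1, against -0.097, 0.015 and 0.020 in those labelled control. The Pol III groups did not overlap, but replicate 1 lay far below the other 2 arrays labelled siChe-1. Pol I lay below Pol II on all 3 arrays labelled siChe-1, by 0.65, 0.32 and 0.57.

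**Figure D2:**
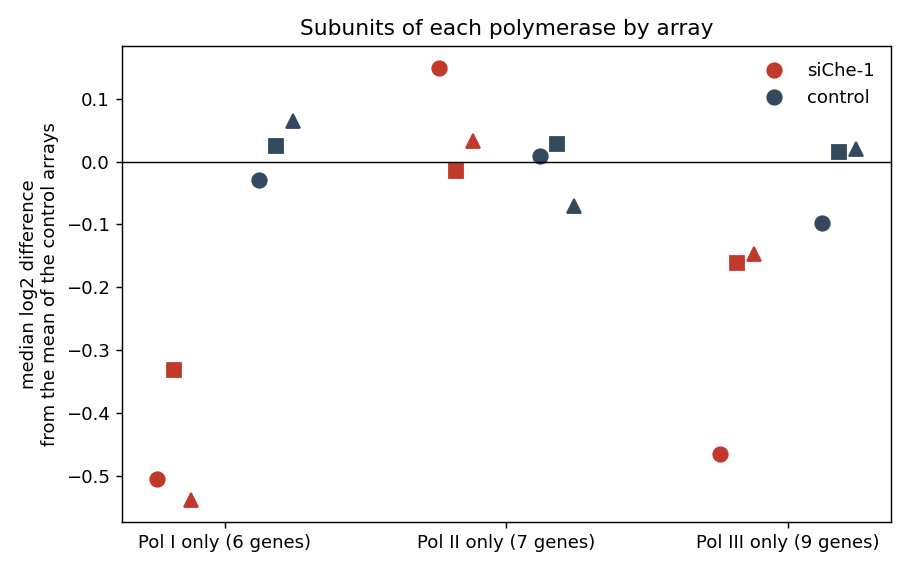
Median log2 difference from the control mean over the subunits used by 1 polymerase only (y axis), 1 point an array, with arrays labelled siChe-1 left of those labelled control and circle, square and triangle for replicates 1, 2 and 3. The 3 siChe-1 points of Pol I lie between -0.54 and -0.33, those of Pol II between -0.015 and 0.15, and those of Pol III between -0.46 and -0.15.

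Among the Pol I subunits, POLR1E and POLR1G encode a pair of proteins that sit together on the enzyme and help it start and clear the promoter. POLR1E read 8.22, 8.43 and 8.31 in the arrays labelled siChe-1, against 8.88, 8.90 and 9.06 in those labelled control. The groups did not overlap. With the labels as given, POLR1E fell to 64.8% of its control level (8.32 ± 0.11 against 8.95 ± 0.10, SD, n = 3 each, log2 difference -0.63 ± 0.12, SE, limma adjusted p = 0.0196), and would be 1.54-fold higher with the labels exchanged. POLR1G read 7.13, 6.78 and 6.67 in the arrays labelled siChe-1, against 7.38, 7.36 and 7.18 in those labelled control. All siChe-1 arrays lay below all control arrays, replicate 1 only just, and the gene did not pass (log2 difference -0.44 ± 0.14, SE, limma adjusted p = 0.130). Without replicate 1 of siChe-1, which is its highest array of that group, POLR1G was called lower (-0.58, limma adjusted p = 0.0145, where 4.48% of all genes were called lower).

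POLR1H encodes the small subunit that lets Pol I cleave RNA when it has backtracked. It read 6.30, 6.30 and 5.93 in the arrays labelled siChe-1, against 6.62, 6.87 and 6.89 in those labelled control, again without overlap. As labelled it fell to 65.3% of its control level (6.18 ± 0.21 against 6.79 ± 0.15, SD, n = 3 each, log2 difference -0.61 ± 0.14, SE, limma adjusted p = 0.0469), and would be 1.53-fold higher with the labels exchanged. A second, dimmer probe set of POLR1H averaged 5.02 in arrays labelled siChe-1 and 5.40 in those labelled control, a log2 difference of -0.38 ± 0.18 (SE). When the 2 probe sets were averaged, POLR1H no longer passed (-0.50, limma adjusted p = 0.110). POLR1HASP, an antisense RNA gene named after POLR1H, read 3.35, 4.0 and 3.83 in the arrays labelled siChe-1, against 3.20, 3.84 and 3.49 in those labelled control. These values are among the low ones of the array, without evidence of signal over background, and the groups overlapped.

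The catalytic pair of Pol I is encoded by POLR1A, the largest chain, and POLR1B, the next in size. POLR1B read 7.71, 8.72 and 8.45 in the arrays labelled siChe-1, against 8.83, 8.89 and 8.94 in those labelled control. Its mean difference was close to that of POLR1E (-0.60), but the siChe-1 arrays spread widely (SD 0.52, against 0.054 for control) and it did not pass (limma adjusted p = 0.184). Replicate 1 set much of that difference: without it POLR1B differed by -0.30. POLR1A read 8.15, 8.49 and 8.48 in the arrays labelled siChe-1, against 8.66, 8.59 and 8.74 in those labelled control, and did not pass (-0.29, limma adjusted p = 0.285; -0.18 without siChe-1 replicate 1). POLR1F, a stalk subunit that binds the initiation factor RRN3, showed the smallest difference of the 6 (-0.036, 95% confidence interval -0.31 to 0.24), and without siChe-1 replicate 1 it lay at 0.047.

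**Figure D3:**
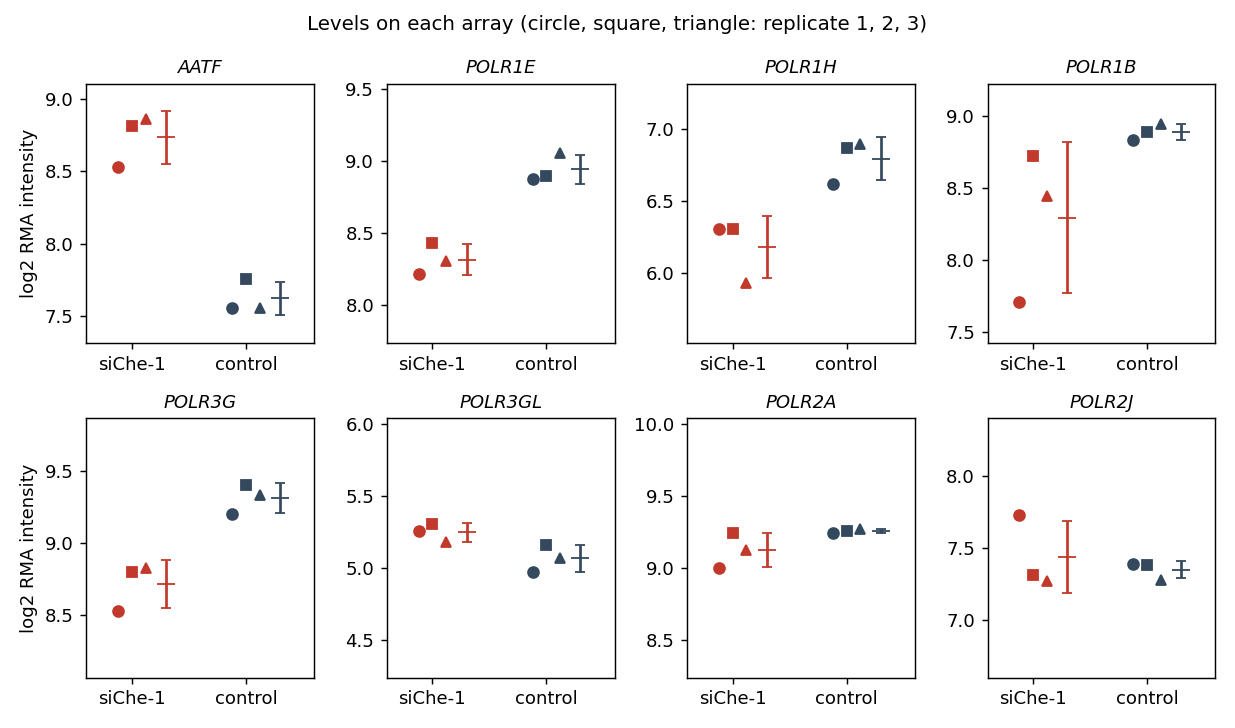
Log2 RMA intensity on each array (y axis) for AATF and 7 polymerase genes, arrays labelled siChe-1 left of those labelled control. Circle, square and triangle are replicates 1, 2 and 3, with mean and SD beside them. Each y axis spans the same number of log2 units but is centred on its own gene. Heights cannot be compared between panels. POLR1E, POLR1H and POLR3G lie lower in all 3 siChe-1 arrays, AATF lies higher, and POLR2A and POLR2J overlap between the groups.

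Pol III uses the small trio POLR3C, POLR3F and POLR3G to open its promoters. POLR3G read 8.53, 8.80 and 8.83 in the arrays labelled siChe-1, against 9.20, 9.40 and 9.33 in those labelled control. The groups did not overlap, and POLR3G as labelled fell to 66.2% of its control level (8.72 ± 0.17 against 9.31 ± 0.10, SD, n = 3 each, log2 difference -0.59 ± 0.13, SE, limma adjusted p = 0.0343), and would be 1.51-fold higher with the labels exchanged. POLR3C read 7.92, 8.11 and 8.05 in the arrays labelled siChe-1, against 8.35, 8.48 and 8.56 in those labelled control. Its groups did not overlap either, but it did not pass (-0.44 ± 0.12, SE, limma adjusted p = 0.0784) unless arrays were centred on their medians or weighted. The third member, POLR3F, differed by 0.014 (95% confidence interval -0.27 to 0.30), and by 0.087 without siChe-1 replicate 1.

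POLR3G has a paralog, POLR3GL, that takes the same place in the enzyme; POLR3G is the form known from stem cells and tumour lines. POLR3GL read 5.25, 5.31 and 5.18 in the arrays labelled siChe-1, against 4.97, 5.16 and 5.07 in those labelled control. It was slightly higher on every siChe-1 array and did not pass (0.18, limma adjusted p = 0.470). Relative to the control mean, the log2 ratio of POLR3G to POLR3GL was -0.98, -0.75 and -0.60 in the arrays labelled siChe-1, against -0.013, -0.0028 and 0.016 in those labelled control. This mean difference of -0.78 gave p = 0.1 in a two-sided exact permutation test over the 6 arrays, the smallest p that 3 against 3 allows. POLR3G was lower and POLR3GL higher, each without overlap, so their ratio had to separate the groups. This p was thus fixed beforehand and adds no support. POLR3GL was dim, and without detection calls its signal could not be set against background.

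The other Pol III subunits mostly lay below 0 without passing. Of the catalytic pair, POLR3A differed by -0.30 (95% confidence interval -0.64 to 0.044) and POLR3B by -0.34 (-0.70 to 0.017). For POLR3B, the array of siChe-1 replicate 1 read 6.66, against 7.23 and 7.24 in the other 2. Without that array POLR3A differed by -0.18 and POLR3B by -0.15. POLR3D and POLR3E form a module that helps Pol III start and stop. They differed by -0.29 and -0.12, and POLR3D did not overlap between groups while POLR3E did. With arrays weighted, POLR3D was called lower (-0.37, limma adjusted p = 0.0195). POLR3K, which takes part in termination, read 8.49, 8.55 and 8.83 in the arrays labelled siChe-1, against 8.96, 8.91 and 8.98 in those labelled control, and did not pass (-0.33, limma adjusted p = 0.206). CRCP, a Pol III stalk subunit whose symbol falls outside the naming pattern, differed by -0.32 (limma adjusted p = 0.253).

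Neither of the 2 subunits shared by Pol I and III passed by limma, and 1 reached an unadjusted p under 0.05. That 1 was lower, against 9.77% of all genes lower at that p. POLR1C and POLR1D form the assembly platform of both enzymes, and mutations of either cause Treacher Collins syndrome. POLR1C read 8.30, 8.64 and 8.67 in the arrays labelled siChe-1, against 8.84, 8.87 and 8.98 in those labelled control, without overlap and without passing (-0.36, limma adjusted p = 0.187). POLR1D differed by 0.0014, with a 95% confidence interval of -0.25 to 0.25, and by 0.041 without siChe-1 replicate 1. The interval from all 6 arrays does not reach the falls of POLR1E or POLR3G.

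Pol II subunits with a probe set of their own showed no call in either direction by limma, and 0 of 7 reached an unadjusted p under 0.05. At that p, 9.77% of all genes were lower and 7.88% higher, so 0 of 7 is near those shares. POLR2A, the catalytic chain that carries the heptad-repeat tail, read 9.0, 9.24 and 9.12 in the arrays labelled siChe-1, against 9.24, 9.25 and 9.27 in those labelled control. It differed by -0.13 (95% confidence interval -0.39 to 0.13), and by -0.073 without siChe-1 replicate 1. POLR2B, the other catalytic chain, read 9.75, 10.7 and 10.6 in the arrays labelled siChe-1, against 10.2, 10.3 and 10.4 in those labelled control. Replicate 1 lay below every control array and the other 2 above every one, and the difference was 0.073 (-0.43 to 0.58). Without replicate 1 it was 0.38 (limma adjusted p = 0.0575).

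POLR2J, whose protein is the reported binding partner of Che-1, read 7.73, 7.31 and 7.27 in the arrays labelled siChe-1, against 7.39, 7.38 and 7.28 in those labelled control. The groups overlapped (0.086, 95% confidence interval -0.23 to 0.41), and without siChe-1 replicate 1 the difference was -0.059. Near-identical copies of POLR2J exist, so its signal could include theirs. POLR2C, the partner of POLR2J in the assembly platform of Pol II, was higher without overlap (8.72, 8.31 and 8.46 in arrays labelled siChe-1, against 8.23, 8.27 and 8.23 in those labelled control) and did not pass (0.25, limma adjusted p = 0.368; 0.14 without siChe-1 replicate 1). The stalk subunits POLR2D and POLR2G differed by -0.19 and -0.018. POLR2I, which acts in start site choice and RNA cleavage, differed by 0.10. None of these 3 passed, and without siChe-1 replicate 1 they lay at -0.016, -0.10 and 0.022.

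Of the 5 subunits common to all 3 enzymes none passed by limma. Only 1 reached an unadjusted p under 0.05, as lower, against 9.77% of all genes lower at that p. That was POLR2F, at 8.63, 8.66 and 8.73 in the arrays labelled siChe-1, against 8.98, 9.20 and 8.90 in those labelled control (-0.36, limma adjusted p = 0.160). POLR2E (0.056), POLR2H (0.072) and POLR2K (0.16) had log2 differences above 0, that of POLR2E being 0.014 without siChe-1 replicate 1. POLR2L split its group, at 9.45, 8.92 and 8.79 in the arrays labelled siChe-1, against 9.16, 9.34 and 9.23 in those labelled control, and differed by -0.19. Without replicate 1 it differed by -0.39 (limma adjusted p = 0.0662), and with arrays weighted it was called lower (limma adjusted p = 0.0372). The median of the 5 was 0.056, near that of the Pol II subunits. POLR2M, which encodes a protein that binds Pol II and restrains it, read 8.20, 8.77 and 8.73 in the arrays labelled siChe-1, against 8.11, 8.26 and 8.20 in those labelled control. It did not pass (0.38, limma adjusted p = 0.259), but without siChe-1 replicate 1 it was called higher (0.56, limma adjusted p = 0.0128, where 4.01% of all genes were called higher). A second probe set of POLR2M averaged 8.24 in arrays labelled siChe-1 and 7.98 in those labelled control. Its log2 difference was 0.26 ± 0.20 (SE). With both probe sets averaged, POLR2M differed by 0.32 over all arrays and did not pass (limma adjusted p = 0.378). Read-through transcripts that include POLR2M are known, and which transcripts its probe sets detect was not tested.

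The calls depend on single arrays. POLR1E was called without siChe-1 replicate 1 or 2, and was lost without siChe-1 replicate 3 or any 1 control array (adjusted p between 0.0739 and 0.0984). All genes called lower came to 4.48% without siChe-1 replicate 1, 1.88% without replicate 2 and 1.36% without replicate 3, and to 1.14%, 1.22% and 1.08% without control replicate 1, 2 and 3. POLR1H and POLR3G were called without siChe-1 replicate 1 and lost without any other single array (adjusted p between 0.0619 and 0.189). The differences themselves ranged from -0.68 to -0.57 for POLR1E, -0.70 to -0.49 for POLR1H and -0.65 to -0.50 for POLR3G. With all probe sets of the table fitted, named or not, 1.23% of probe sets passed and no subunit did, POLR1E being nearest (limma adjusted p = 0.0600).

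Start-site sequence was matched for 23 of the 31 members in the RefSeq promoter windows of GRCh38.p14, and the 250 bases before each start were searched on both strands. The E-box CACGTG, known as a site of the growth regulator MYC, was present for 3 of the 23 (POLR1G, POLR3A and POLR3C), against 7.73% of all 27305 genes with a window. By polymerase this was 1 of 5 Pol I, 2 of 7 Pol III and 0 of 4 Pol II genes. The GC box GGGCGG, bound by SP1, was present for 15 of the 23, against 46.2% of all genes. By polymerase this was 1 of 5 Pol I, 5 of 7 Pol III and 3 of 4 Pol II genes. No E-box and GC box shared bases in these windows. These counts are a description of letters and say nothing of what binds there. The windows printed here, 5′ to 3′ on the plus strand with both motifs in capitals, are those of POLR1H, the called subunit among the 23 (chr6:30061015-30061264), POLR1G (chr19:45406394-45406643) and POLR3C (chr1:145823950-145824199), Pol I and III genes with an E-box, and POLR2A (chr17:7484116-7484365), a Pol II gene with 2 GC boxes.
POLR1H: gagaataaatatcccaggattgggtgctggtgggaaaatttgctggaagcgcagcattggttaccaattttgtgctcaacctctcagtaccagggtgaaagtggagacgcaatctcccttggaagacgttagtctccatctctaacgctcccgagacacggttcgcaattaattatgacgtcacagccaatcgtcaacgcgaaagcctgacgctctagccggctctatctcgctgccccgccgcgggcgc
POLR1G: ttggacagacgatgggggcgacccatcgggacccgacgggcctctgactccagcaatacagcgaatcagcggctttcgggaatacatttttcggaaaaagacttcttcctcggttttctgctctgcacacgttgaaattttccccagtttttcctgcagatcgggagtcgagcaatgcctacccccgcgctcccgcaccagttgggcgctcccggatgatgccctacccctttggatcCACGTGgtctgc
POLR3C: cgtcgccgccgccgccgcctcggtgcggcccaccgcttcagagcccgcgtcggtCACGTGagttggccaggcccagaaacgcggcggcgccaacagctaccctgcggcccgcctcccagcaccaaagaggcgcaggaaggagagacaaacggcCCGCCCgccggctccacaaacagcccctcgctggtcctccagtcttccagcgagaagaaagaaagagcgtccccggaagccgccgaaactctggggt
POLR2A: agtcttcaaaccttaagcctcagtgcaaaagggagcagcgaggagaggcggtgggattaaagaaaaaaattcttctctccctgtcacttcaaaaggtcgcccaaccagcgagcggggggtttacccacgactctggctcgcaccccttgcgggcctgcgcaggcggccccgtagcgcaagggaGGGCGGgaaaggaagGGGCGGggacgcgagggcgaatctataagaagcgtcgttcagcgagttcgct
The E-box of POLR1G begins 12 bases before the start and that of POLR3C 196 bases before the first of its 2 annotated starts, while the window of its second start holds no E-box and the window of POLR1H holds neither motif.

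Factors that work with the polymerases held 3 calls, CAVIN1, GPN2 and TEFM, all lower. Of 12 measured Pol I initiation and termination factors (POLR1G counted among them), 1 fell, none rose and 11 did not pass, against 2.52% of all genes called lower, with a median of -0.10. The 1 was CAVIN1, which was described as a factor releasing Pol I transcripts and is better known as a coat protein of caveolae. It read 7.10, 6.66 and 6.67 in the arrays labelled siChe-1, against 7.48, 7.45 and 7.59 in those labelled control (-0.70, limma adjusted p = 0.0281). Of 18 Pol III factors, with CRCP counted among them, none passed by limma, 4 reached an unadjusted p under 0.05, all lower, against 9.77% of all genes and 14.1% of the brighter ones, and the median was -0.063. The nearest were SNAPC4, a subunit of the complex that starts small nuclear RNA genes (-0.48, limma adjusted p = 0.0535), and BRF2, which guides Pol III to promoters of the U6 type (-0.56, limma adjusted p = 0.0546).

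Neither Pol II list held a call by limma. Of 29 general transcription factors, 5 were lower and 1 higher at an unadjusted p under 0.05, with a median of -0.089. GTF2A1, a TFIIA subunit, was the nearest to passing and read higher (0.48, limma adjusted p = 0.0718), followed by GTF2H1 of TFIIH (-0.38, limma adjusted p = 0.104). Of 28 pausing and elongation factors, 4 were lower and 0 higher at an unadjusted p under 0.05, with a median of -0.065. Both lower counts are near the 14.1% of the brighter genes, and 9.77% of all genes, that were lower at that p. These were led by ELOA (-0.39, limma adjusted p = 0.123) and SUPT5H (-0.46, limma adjusted p = 0.157).

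Of 21 polymerase assembly and import factors, 1 fell, none rose and 20 did not pass (median -0.10), against 2.52% of all genes called lower. That was GPN2, a GTPase of the family that brings Pol II into the nucleus, at 6.07, 6.25 and 5.97 in the arrays labelled siChe-1, against 6.49, 6.74 and 6.75 in those labelled control (-0.56, limma adjusted p = 0.0448). The mitochondrial polymerase is a single chain unrelated to the nuclear enzymes. Of its 5 genes 1 fell, none rose and 4 did not pass (median -0.30). TEFM, its elongation factor, read 5.22, 5.49 and 5.31 in the arrays labelled siChe-1, against 6.13, 5.97 and 6.02 in those labelled control, without overlap (-0.70, limma adjusted p = 0.0121). POLRMT, the chain itself, differed by -0.30 and did not pass (limma adjusted p = 0.297). CAVIN1 and GPN2 were called without siChe-1 replicate 1 and lost without any other single array, and TEFM was lost without siChe-1 replicate 3 or control replicate 1 or 3. With all probe sets fitted, CAVIN1 and GPN2 were lost (limma adjusted p = 0.0941 and 0.115) and TEFM was called (limma adjusted p = 0.0451). With siChe-1 replicate 1 left out, GTF2A1 and GTF3C3 were called higher and BRF2 and SNAPC4 lower, and without siChe-1 replicate 3 TTI2 was called lower. With all arrays GTF3C3 differed by 0.24 (limma adjusted p = 0.550) and TTI2 by -0.57 (limma adjusted p = 0.0818).

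**Figure D4:**
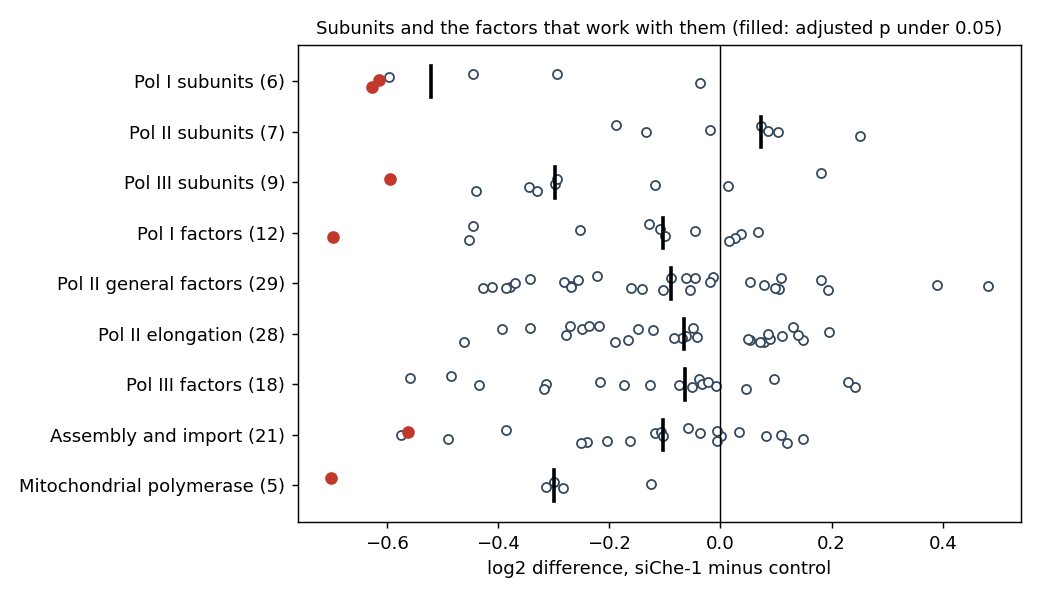
Log2 difference, siChe-1 minus control by label (x axis), of the subunits used by 1 polymerase only and of 6 lists of factors that work with the polymerases, 1 point a gene, with the number of genes in brackets and the median as a black bar. Filled points passed the adjusted p of 0.05 and are POLR1E, POLR1H, POLR3G, CAVIN1, GPN2 and TEFM, all lower.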

How the data were processed

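Log2 intensity per probe set, from RMA run in Expression Console by the authors, was deposited (tools as named, without versions, per the submitters' processing notes). RMA corrects background, quantile-normalises arrays and summarises probes by median polish, which hides any shift common to all transcripts. Array medians lay between 5.03 and 5.05 in arrays labelled siChe-1 and between 4.95 and 5.00 in those labelled control, without overlap. The deposited table holds no detection calls and 0 columns of other samples. For the genome build: not given in the sources used here.

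Of 33297 probe sets, 19460 had 1 gene symbol, 1754 had several, and 12083 were unnamed in the annotation used. The brightest probe set was kept for each of the 769 genes with several, leaving 18417 genes. Of the 39 probe sets whose symbols match the polymerase pattern, 33 had 1 symbol, for 31 genes, 2 of them with 2 probe sets.

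The comparison used limma 3.58.1 (R 4.3.3; lmFit and eBayes without covariate or filter), with Benjamini-Hochberg adjustment over all 18417 genes and calls under 0.05. The fit was tested on simulated data with independent noise for each gene and array. That noise lacks the shared deviation of siChe-1 replicate 1, so the test does not cover it. Intervals are 95% and not adjusted. Nothing in the labels says whether arrays came from separate cultures, so p-values measure only the spread between arrays, and the number of arrays limits precision. The members and lists were chosen with earlier results of these data known. Every member is named, with up to 4 called genes of each partner list, or the 2 of smallest p where none passed. CRCP, POLRMT, GTF3C3, TTI2 and the marker genes were named outside this rule, after their values were seen. Listed genes lacking their own probe set were left out. The labels do not say that a replicate number marks a shared culture, so no block was used in the main fit. Same-numbered correlations of deviations were 0.23, 0.064 and -0.045, which cannot decide whether the arrays were paired. Alternatives were a further quantile normalisation, median centring, leaving out dim genes, averaging probe sets, a trended robust prior, array weights, a replicate block, adjusted p under 0.01, leaving out each array, and, added after seeing the data, fitting all probe sets.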

Additional observations from a re-analysis of the deposited data

How the results depend on the processing

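Quantile normalisation, median centring, leaving out dim genes (which removes POLR1HASP), averaging probe sets and a trended robust prior left between 2 and 4 subunits lower and none higher. Centring gave 680 lower and 170 higher genes, against 465 and 220 of the 685 in the main analysis. With centring the medians were -0.58 for Pol I, 0.0089 for Pol II and -0.36 for Pol III. POLR1H was lost with a trended robust prior (adjusted p = 0.0576) and with averaged probe sets. Array weights gave 2865 genes and 8 subunits, all 8 lower, with a Pol II median of -0.013. The subunits added by weighting were POLR1B, POLR1G, POLR2L, POLR3C and POLR3D, and POLR2M was called higher (limma adjusted p = 0.00498). At an adjusted p under 0.01 there were 261 genes and 0 subunits by limma, and with all probe sets fitted 294 of the genes and 0 subunits. With a replicate block there were 1145 genes and 4 subunits, POLR1B being the one added (adjusted p = 0.0429). The labels do not say whether same-numbered arrays share more than a number, so the block fit is given only as an alternative. Leaving out 1 array gave between 272 and 1565 genes, between 0 and 4 subunits, and medians of -0.54 to -0.42 for Pol I, -0.016 to 0.070 for Pol II and -0.35 to -0.18 for Pol III. The causes were not tested. AATF stayed higher and called in every setting run.

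Subunits near 0 changed sign: POLR2G with quantile normalisation (0.038), POLR1D (-0.063), POLR2E (-0.0078) and POLR3F (-0.050) with centring, POLR1F (0.016) and POLR2J (-0.055) with array weights. With 1 array left out the ranges were -0.023 to 0.041 for POLR1D, -0.090 to 0.047 for POLR1F, -0.10 to 0.38 for POLR2B, -0.10 to 0.039 for POLR2G, -0.024 to 0.17 for POLR2H, -0.059 to 0.17 for POLR2J and -0.050 to 0.090 for POLR3F. Signal over background could not be judged without detection calls, which limits POLR3GL and POLR1HASP most.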

Other observations

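Of the 6 probe sets whose several symbols include one of the polymerase pattern, 1 passed when all probe sets of the table were fitted. It averaged 6.44 in the arrays labelled siChe-1 and 5.71 in those labelled control (log2 difference 0.73, limma adjusted p = 0.0362). Another averaged 6.59 in the arrays labelled siChe-1 and 5.95 in those labelled control, and did not pass (log2 difference 0.64, limma adjusted p = 0.0604). No gene can be named from either.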
